A study of Mus musculus with 6 samples.

Results

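Gene expression in a mouse heart allograft given ABH4 was compared with that in an untreated heart allograft. These were 2 of the 6 samples of the series, each measured on 1 array, and 12393 genes were compared between them. ABH4 is 4-amino tetrahydrobiopterin, and the dose was 50 mg/kg, repeated every 8 h. The untreated allograft served as the control, and both samples were total RNA of cardiac grafts transplanted across a donor-recipient difference. The other 4 arrays are used only to place each level: allografts given BH4 (tetrahydrobiopterin, 50 mg/kg every 8 h), NIL (N-imino ethyl-L-lysine, 5 mg/kg every 8 h) or CsA (cyclosporin A, 15 mg/kg every 24 h), and an untreated syngraft, a heart transplanted without a donor-recipient difference. Mouse strains, sex, the day of removal, the vehicle and any pooling of grafts are not stated in the labels. With 1 array a group there is no replicate, no spread between grafts and no test of significance, so every difference below describes these 2 arrays, and their number limits the precision.

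Tetrahydrobiopterin is the cofactor that nitric oxide synthases need to make nitric oxide from arginine, and its synthesis from GTP starts with GTP cyclohydrolase, Gch1. ABH4 carries an amino group at position 4 of the pterin ring in place of the oxygen of tetrahydrobiopterin, and it is known as an antagonist of that cofactor. In a rejecting heart allograft, T cells and macrophages enter the tissue, interferon-gamma induces antigen presentation and chemokines, and the inducible synthase Nos2 is made mostly by macrophages.

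The signal of a probe set, the group of short probes that measures a transcript, was scaled to a common median on all arrays. Values below 34.8, the 30th percentile of all values, were set to that floor, and differences are given on the log2 scale as ABH4 minus untreated. A gene at the floor on 1 of the 2 arrays has only a lower bound for its fold difference. Of the 12393 genes, 9529 lay above the floor on at least 1 of the 2 arrays and 8735 on both. Pearson's r of the log2 signals was 0.987 across genes, and genes are not replicates. The median difference was 0.00 over all genes and -0.04 over those above the floor. Where a gene had further probe sets, they differed from its brightest by a median of 0.20 over 4831 pairs, which shows how far the measurement of 1 gene could vary within these arrays.

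Few genes stood far apart. With ABH4, 86 genes (0.694%) were higher by 2-fold or more and 35 (0.282%) were lower. Of the 9529 genes above the floor, these are 0.903% and 0.367%. Counted as probe sets, 155 (0.685%) were higher and 81 (0.358%) lower among the 22626 that are not controls. At 1.5-fold the counts were 399 higher (3.22%) and 309 lower (2.49%), or 4.19% and 3.24% of the genes above the floor, and at 3-fold 16 higher (0.129%) and 2 lower (0.0161%). In the lists below, members past 1.5-fold are to be set beside the 3.22% higher and 2.49% lower of all genes. Without the median scaling the 1.5-fold counts were 467 higher and 220 lower, so that the higher share was 68.0% in place of 56.4%. Dim genes made up much of these counts: both signals were under 100 for 34 of the 86 and 21 of the 35. Among the 86, the ABH4 array was above all 5 others in 28 genes, and the untreated allograft was below all 5 others in 48, with 8 genes in both counts. Among the 35, the ABH4 array was below all others in 18 and the untreated allograft above all others in 13, with 4 in both. For 48 of the 86 higher genes, the untreated array was therefore the lowest of all 6. Further probe sets existed for 27 of the 86, and they had the same sign in 21 but were past 1.5-fold in only 8. Among the 35 lower genes 4 had further probe sets, with the same sign in 2 and past 1.5-fold in 0.

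The 12 largest higher among genes measured on both arrays were Igk, Il33, Mmp2, Iglv1, Sfrp1, Jchain, Hoxa9, Steap4, Tmem120b, Mmp23, Ptx3 and Igha, at 3.16-fold to 5.45-fold. Except for Jchain, Ptx3 and Igha, their untreated signals were close to the floor, from 35.2 for Steap4 to 49.4 for Tmem120b. The folds of these dim genes therefore rest on untreated values near the floor. Jchain, Ptx3 and Igha had untreated signals of 534, 157 and 1809.7. The largest lower differences are given further on, and most were of dim genes as well.

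**Figure D1:**
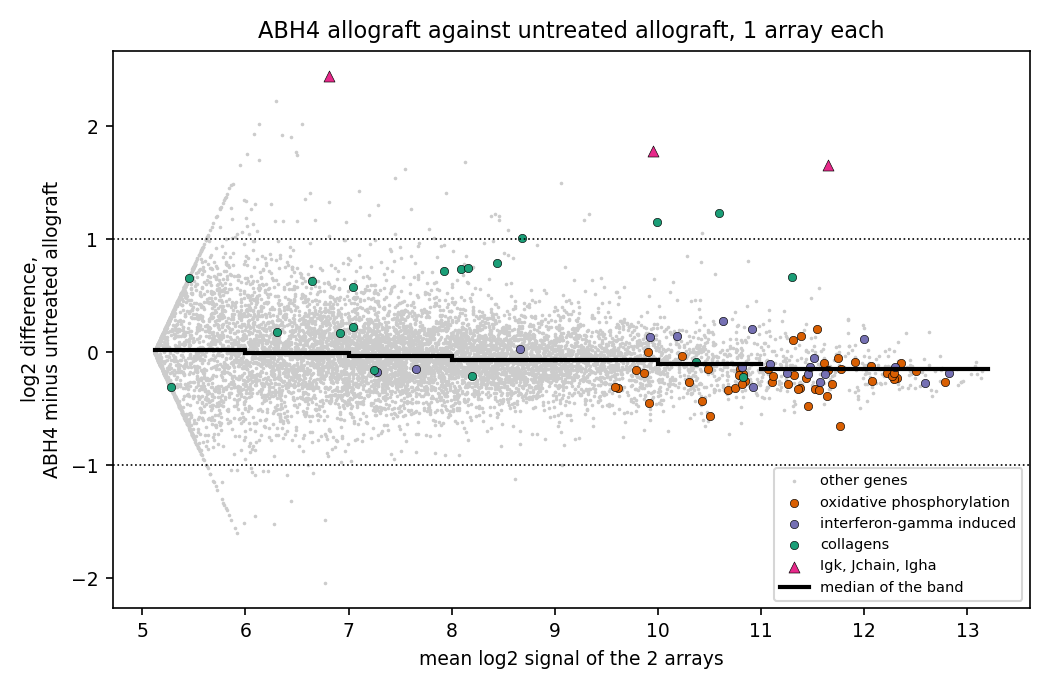
Each point is a gene above the floor on at least 1 of the 2 arrays. The x axis is its mean log2 signal and the y axis its log2 difference, ABH4 minus untreated allograft, with dotted lines at 2-fold. Igk, Jchain and Igha (triangles) and most collagens lie high, and most oxidative phosphorylation genes lie just under the thick bars, the medians of all genes in bands of signal.

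Igk, Jchain, Igha and several antibody variable segments were at least 2-fold higher with ABH4, while the IgM heavy chain Ighm was not. Igk, the kappa light chain, had a signal of 263 with ABH4, 48.2 in the untreated allograft, 39.7 with BH4, 241 with NIL, 134 with CsA and a value at the floor in the syngraft. It was 5.45-fold higher with ABH4, and its 2 further probe sets were higher by 0.19 and 0.53 on the log2 scale, far less than the 2.45 of the brightest. Jchain, which joins IgA and IgM into polymers, had 1840.2 with ABH4 and 534 untreated, against 473 with BH4, 1649 with NIL, 1313 with CsA and 225 in the syngraft, and was 3.44-fold higher. Igha, the IgA heavy chain, had 5725 with ABH4 and 1809.7 untreated, against 1890.4 with BH4, 4199 with NIL, 3700.1 with CsA and 454 in the syngraft. It was 3.16-fold higher, with further probe sets at 1.51 and 1.38.

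The ABH4 array was thus the highest of the 6 for Igk, Jchain and Igha, with NIL next and with the untreated and BH4 allografts close to each other. Iglv1, a lambda variable segment, had 159 against 41.9 and was 3.80-fold higher, and the kappa variable segment Igkv15-103 had 141 with ABH4 and was at the floor on the 5 other arrays, at least 4.06-fold higher. Igkv8-30 had 987 against 423, or 2.33-fold. Probe sets for antibody segments can share sequence with related segments, so that a value cannot be given to 1 segment with certainty. Of the 21 immunoglobulin and joining chain genes with probe sets of their own, a group chosen after its values were seen, 13 were above the floor, 9 were at least 1.5-fold higher and none was lower by that fold, with a median of 0.20. Ighm, the IgM heavy chain, had 173 against 179.7. Igkv9-120, a kappa variable segment, was 2.66-fold higher, but its 1 further probe set did not have the same sign. Of 13 probe sets listed for several immunoglobulin genes, 8 were above the floor, 4 at least 1.5-fold higher and 0 lower. Only 1 of them was at least 2-fold higher.

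The B cell and plasma cell list held 23 measured genes, of which 17 were above the floor, 5 at least 1.5-fold higher and 0 lower, with a median of 0.00. Beside Igk, Jchain and Igha, the 5 were Cd22, an inhibitory receptor of B cells (119 against 62.5), and Pou2af1, a coactivator of antibody genes (77.0 against 45.0). The B cell receptor subunit Cd79a had 45.1 with ABH4 and 51.1 untreated, and the B cell surface protein Ms4a1 had 37.9 and 45.0, both near the floor. Xbp1, a transcription factor that plasma cells need and other secretory cells also use, had 2180.4 and 2327. Igk and Jchain were on the preset list, which was itself chosen with earlier results of these data known. Igha was named for its large difference, and the other genes of this paragraph after their values were seen. In bulk tissue fewer cells of a type and less RNA per cell cannot be told apart.

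**Figure D2:**
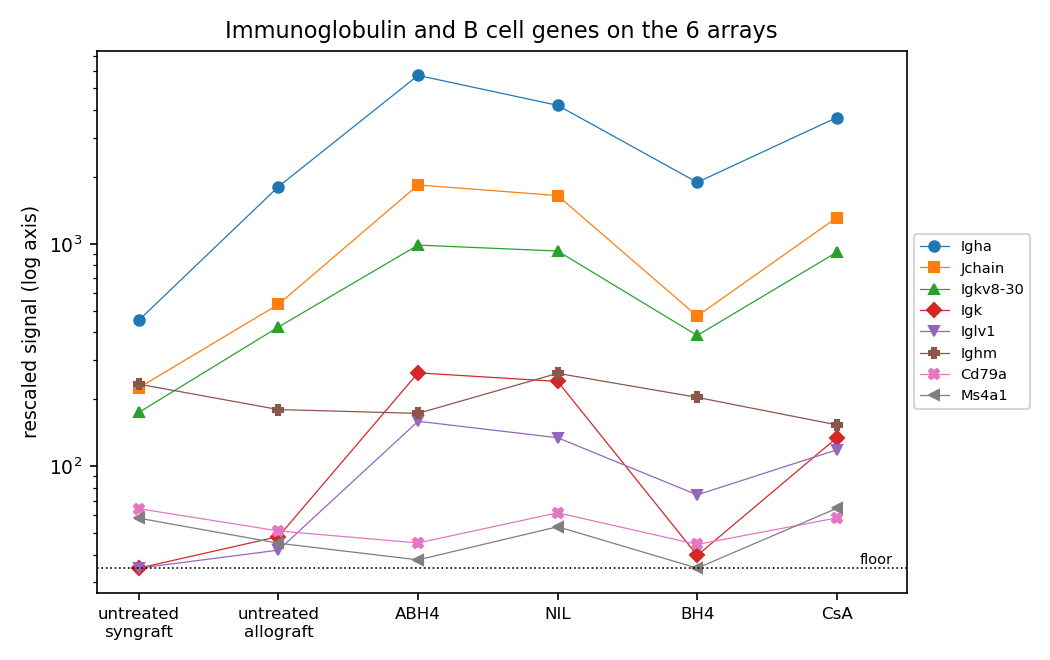
Rescaled signal (log axis) of 8 immunoglobulin and B cell genes on the 6 arrays, 1 array a group; thin lines join the values of a gene and imply no order, and the dotted line is the floor of 34.8. Igha, Jchain, Igkv8-30, Igk and Iglv1 are highest with ABH4, while Ighm, Cd79a and Ms4a1 are not.

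Matrix genes were higher in the ABH4 allograft than in the untreated allograft, and much lower than in the syngraft. Among 23 measured collagens, 19 were above the floor, 10 were at least 1.5-fold higher (43.5%, beside 3.22% of all genes) and 0 lower, with a median of 0.22 beside 0.00 over all genes. Col1a2, a chain of type I collagen, had 2363 with ABH4, 1003 untreated, 4960.4 with BH4, 958 with NIL, 5643 with CsA and 7507 in the syngraft. It was 2.36-fold higher, and its further probe set was higher by 1.45. Col1a1, the partner chain, had 1513 with ABH4 and 680.3 untreated, against 3877 with BH4, 626 with NIL, 4708 with CsA and 5537 in the syngraft, and was 2.22-fold higher. The ABH4 level of both chains lay above the untreated and NIL arrays and below the BH4, CsA and syngraft arrays.

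Col5a2, a fibril-forming chain that associates with type I collagen, had 581 against 289 and was 2.01-fold higher. Col3a1, the chain of type III collagen, had 3164 against 1994 (1.59-fold), and the type VI chains Col6a1, Col6a2 and Col6a3 were 1.65-fold, 1.68-fold and 1.73-fold higher. The basement membrane chains Col4a1 and Col4a2 differed little, with 1674 against 1952 and 1279.5 against 1357. The signals of the collagens summed to 13269 with ABH4 and 9246 untreated, against 8729 with NIL, 24187 with BH4, 31517 with CsA and 36844 in the syngraft. Col3a1 and the type IV and VI chains were named after their values were seen.

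Matricellular proteins and proteoglycans, which organise the matrix and bind to it, had 40 measured genes. Of these 14 were at least 1.5-fold higher and 1 was lower, with a median of 0.39. Mgp, matrix Gla protein, an inhibitor of calcification, had 899 with ABH4 and 318 untreated, against 1841 with BH4, 351 with NIL, 4696 with CsA and 6774 in the syngraft, and was 2.82-fold higher. Dpt, dermatopontin, had 225 against 83.5 and was 2.69-fold higher. Postn, periostin, a matricellular protein made by activated fibroblasts, had 506 with ABH4 and 219 untreated, against 1612 with BH4, 231 with NIL, 3019 with CsA and 3142 in the syngraft, a 2.31-fold difference. The small proteoglycans Dcn (1985 against 954) and Lum (322 against 151), named after their values were seen, were 2.08-fold and 2.14-fold higher. As with the collagens, the ABH4 level of Mgp and Postn was above the untreated and NIL arrays and far under the syngraft.

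Enzymes that cut the matrix, with their inhibitors, gave 33 measured genes, 8 at least 1.5-fold higher and 1 lower (median 0.14). Mmp2, a gelatinase, had 189 with ABH4 and 46.6 untreated, against 649 with BH4, 69.3 with NIL, 694 with CsA and 494 in the syngraft. It was 4.05-fold higher by its brightest probe set, while a further one was higher by 0.54. Mmp23, a membrane-bound metalloproteinase, had 127 against 39.0 (3.25-fold), and Ctsk, cathepsin K, a collagen-degrading protease, had 153 against 59.7 (2.56-fold). The inhibitor Timp1 had 2484 with ABH4 and 1419 untreated, or 1.75-fold.

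Genes of fibroblasts outside the matrix gave 28 measured genes, 10 at least 1.5-fold higher and 1 lower, with a median of 0.34. Sfrp1, a secreted inhibitor of Wnt signalling, had 168 with ABH4 and 44.8 untreated, against 252 with BH4, 56.4 with NIL, 357 with CsA and 349 in the syngraft. It was 3.76-fold higher, and its 3 further probe sets were higher by 1.41, 1.26 and 0.29. Pdgfra, the platelet-derived growth factor receptor that marks fibroblasts, had 95.1 with ABH4 and was at the floor in the untreated and NIL allografts, so that it was at least 2.74-fold higher, and its further probe set was higher by 1.37. Rcn3, a calcium-binding protein of the endoplasmic reticulum, had 89.5 and was at the floor in the untreated allograft, at least 2.57-fold higher. The lower gene was Ddr2, a collagen receptor of fibroblasts, with 88.8 against 143. TGF-beta signalling, the pathway best known for inducing matrix genes, gave 27 measured genes, 0 at least 1.5-fold higher and 1 lower (Bmp4, a ligand of the same superfamily, 35.3 against 55.3), with a median of -0.04. That 1 gene was 3.70% of the list, near the 2.49% of all genes.

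**Figure D3:**
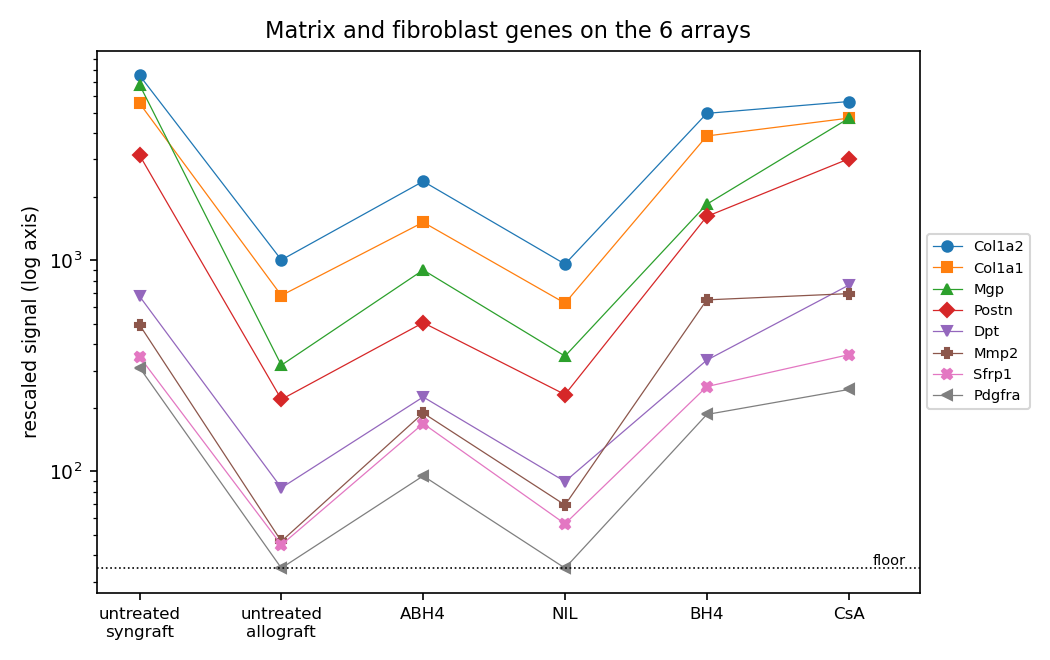
Rescaled signal (log axis) of 8 matrix and fibroblast genes on the 6 arrays, 1 array a group; thin lines join the values of a gene and imply no order, and the dotted line is the floor of 34.8. Each gene is higher with ABH4 than in the untreated and NIL allografts and lower with ABH4 than with BH4, CsA or in the syngraft.

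The promoters of 2 of these genes are shown because they were at least 2-fold higher together and hold a CCAAT box, the letters CCAAT on either strand, the site that transcription factor NF-Y is known to bind in type I collagen promoters. Each runs from 250 bases before the transcription start to the base before it, from RefSeq on GRCm38.p6, with the box in capitals.
Col1a2, chr6:4505368-4505617, plus strand: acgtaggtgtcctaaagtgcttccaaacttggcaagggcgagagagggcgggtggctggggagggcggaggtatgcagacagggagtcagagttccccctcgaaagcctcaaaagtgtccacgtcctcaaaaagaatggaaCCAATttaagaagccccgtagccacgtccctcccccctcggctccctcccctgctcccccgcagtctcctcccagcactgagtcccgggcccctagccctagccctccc
Rcn3, chr7:45092214-45092463, minus strand: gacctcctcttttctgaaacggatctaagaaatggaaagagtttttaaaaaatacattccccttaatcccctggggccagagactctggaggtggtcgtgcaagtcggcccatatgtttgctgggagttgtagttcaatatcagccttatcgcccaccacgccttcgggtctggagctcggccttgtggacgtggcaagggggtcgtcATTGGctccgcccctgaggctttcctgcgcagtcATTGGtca
The Col1a2 box lies 109 bases before the start on the forward strand, and the boxes of Rcn3 lie 42 and 8 bases before it on the reverse strand. The letters were found in 5 of the 22 promoters available for the 34 matrix and fibroblast genes at least 1.5-fold higher (22.7%), and in 9314 of all 27025 promoters of that length (34.5%). A match describes letters and not a bound site.

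Several acute phase and alarm genes were higher. Il33, an alarmin cytokine released by damaged stromal cells, had 169.9 with ABH4 and 36.2 untreated, against 83.6 with BH4, 46.5 with NIL, 136 with CsA and 92.8 in the syngraft, and was 4.69-fold higher. The ABH4 array was the highest of the 6 for Il33, and the untreated value was close to the floor. Ptx3, a long pentraxin made at sites of inflammation, had 503 with ABH4 and 157 untreated, against 270.4 with BH4, 132 with NIL, 199.9 with CsA and 87.6 in the syngraft. It was 3.21-fold higher, and ABH4 was again the highest array.

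Steap4, an inflammation-induced metalloreductase, had 119 against 35.2 (3.38-fold), with a further probe set at 0.43. Serpina3n, a serine protease inhibitor of the acute phase, had 536 against 232 (2.31-fold), and the syngraft stood higher at 1000.0. Of 14 measured acute phase genes, 10 were above the floor, 5 at least 1.5-fold higher and 0 lower, with a median of 0.00. Hp, haptoglobin (937 against 417), and Lbp, which presents lipopolysaccharide to CD14 (117 against 52.3), were the others of the 5. Saa3, a serum amyloid, had 3669 against 2476, and Lcn2, a siderophore-binding protein, had 375 against 492.

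Complement genes gave 3 of 18 measured at least 1.5-fold higher and 0 lower (median 0.13). C1s1, a protease of the C1 complex, had 544 with ABH4 and 258 untreated (2.11-fold), against 437 with BH4, 260.1 with NIL, 351 with CsA and 201 in the syngraft. Serping1, the C1 inhibitor, had 1909 against 1181 (1.62-fold), and C2 had 113 against 69.3. Among 39 chemokines and receptors, 4 were at least 1.5-fold higher and 0 lower (median 0.08). The neutrophil-attracting Cxcl5 had 136 against 60.7 (2.24-fold) and Cxcl1 206 against 106 (1.95-fold), and the B cell attractant Cxcl13 had 216 against 109 (1.99-fold). Of 31 cytokines Il33 was the only one at least 1.5-fold apart (3.23% higher, near the 3.22% of all genes).

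Ifng and Gzmb, which activated T cells and killer cells make, differed by less than 1.5-fold between the 2 arrays. Ifng, interferon-gamma, had 738 with ABH4 and 586 untreated, against 400.0 with BH4, 484 with NIL, 102 with CsA and a value at the floor in the syngraft, a 1.26-fold difference. Gzmb, a granule protease of killer cells, had 3703 with ABH4 and 3888 untreated, against 2973 with BH4, 3358 with NIL, 346 with CsA and a value at the floor in the syngraft. ABH4 and the untreated allograft were the highest arrays for both genes. Among 17 measured T cell genes, 11 had a positive difference and 3 (17.6%, beside 3.22% of all genes) lay at least 1.5-fold higher and 0 lower, with a median of 0.10. When a gene's probe sets were averaged, the count was 1. Of 21 cytotoxic lymphocyte and NK genes 1 was higher (4.76%, near the 3.22% of all genes) and 0 lower (median 0.00).

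Cd8a, the coreceptor of cytotoxic T cells, had 310.0 against 173 (1.79-fold) by its brightest probe set, but a further one differed by 0.08. Cd28, the costimulatory receptor, had 137 against 89.9, and its further probe set was lower by 0.17 on the log2 scale. Cd3e, a subunit of the T cell receptor complex, named after its value was seen, had 375 against 349. Eomes, a transcription factor of killer cells, had 82.9 against 54.1. Il2ra, the interleukin 2 receptor alpha chain, had 129 against 83.7 and was the 1 gene of 24 checkpoint and T cell regulation genes at least 1.5-fold apart.

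Of 31 measured macrophage genes, 5 (16.1%, beside 3.22% of all genes) lay at least 1.5-fold higher and 0 lower, 25 had a positive difference, and the median was 0.13. With the floor at the 50th percentile 1 was past 1.5-fold. The scavenger receptor Marco had 88.6 and was at the floor in the untreated allograft (at least 2.55-fold), and Trem2, a lipid-sensing receptor, had 84.2 and was at the floor there too (at least 2.42-fold). Gpnmb, a glycoprotein of lipid-loaded macrophages, had 108 with ABH4 and 43.3 untreated, but 535 with BH4, 332 with CsA, 153 with NIL and 148 in the syngraft. The widely expressed macrophage genes Cd68 (842 against 799) and Adgre1 (504 against 495), named after their values were seen, differed little. Folr2, a folate receptor of tissue macrophages, had 177 against 88.6 and was the largest difference among 12 folate and one-carbon genes.

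Genes induced by interferon-gamma showed no member at least 1.5-fold apart in either direction among 20 measured. Their median was -0.13 and became -0.04 when the distributions of the arrays were made equal by quantile normalization. Cxcl9, a chemokine for activated T cells, had 4265 with ABH4 and 3938 untreated, against 3928 with BH4, 3712 with NIL, 2498 with CsA and 159 in the syngraft, a 1.08-fold difference. Gbp7, a guanylate-binding protein, had 1744 against 2158, and Cxcl10 had 1749 against 1442. MHC class I and peptide loading genes (12 measured, median -0.08) and MHC class II genes (11 measured, median -0.18) likewise had 0 members at least 1.5-fold apart.

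Of 20 measured genes induced by type I interferon, 3 were at least 1.5-fold lower and 0 higher, and 16 had a negative difference, with a median of -0.25 that was -0.19 after quantile normalization. When a gene's probe sets were averaged, 1 was at least 1.5-fold lower. Rtp4, an interferon-induced chaperone, had 1289 with ABH4 and 2125 untreated, against 1502 with BH4, 1132 with NIL, 1064 with CsA and 329.6 in the syngraft, and was 1.65-fold lower. Rsad2, viperin, had 1127 with ABH4 and 1707 untreated (1.51-fold lower), and its 2 further probe sets were lower as well, at -0.59 and -0.54. Mx2, an antiviral GTPase, was at the floor with ABH4 and had 76.6 untreated, at least 2.20-fold lower. For Rtp4, Rsad2 and Mx2 the untreated allograft was the highest of the 6 arrays.

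Nos2, Nos3, Gch1 and Qdpr, synthases and enzymes of the cofactor that ABH4 antagonises, each differed by less than 1.5-fold. Nos2 had 61.3 with ABH4, 73.2 untreated, 54.7 with BH4, 88.0 with NIL and values at the floor with CsA and in the syngraft, 1.19-fold lower with ABH4. Nos3, the endothelial synthase, had 174 with ABH4, 221 untreated, 189.7 with BH4, 218 with NIL, 209 with CsA and 246 in the syngraft, or 1.27-fold lower. Nos2 is a dim probe set, and its levels in the 4 allografts other than CsA lay between 54.7 and 88.0. Gch1 had 263 against 279, and its further probe set differed the other way by 0.56. Qdpr, which regenerates tetrahydrobiopterin, had 611 against 543, and its further probe set differed by -0.15.

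Of the 15 measured genes of this list 1 was at least 1.5-fold higher and 0 lower (median -0.06). The higher count was 0 with the floor at the 50th percentile and 2 with it at the 10th. The higher gene of the main count was Cbr1, a carbonyl reductase that can take part in tetrahydrobiopterin synthesis, with 114 against 67.4. Pts, the enzyme after Gch1 in the synthesis, had 99.7 against 146 and was 1.46-fold lower. Genes of arginine supply and use gave 2 of 13 at least 1.5-fold higher and 0 lower (median 0.12). That higher count was 0 when a gene's probe sets were averaged, and also 0 with the floor at the 50th percentile. Slc7a2, a transporter that brings arginine into cells, had 119.9 with ABH4 and 48.3 untreated, against 69.4 with BH4, 103 with NIL, 42.0 with CsA and 59.0 in the syngraft, a 2.48-fold difference, with a further probe set at 0.31. Arg2, the mitochondrial arginase, had 61.7 against 39.5. Among 12 cyclic GMP signalling genes, the pathway that nitric oxide activates, 0 were higher and 1 lower by that fold (Pde1a, a phosphodiesterase, at the floor with ABH4 and 52.5 untreated).

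**Figure D4:**
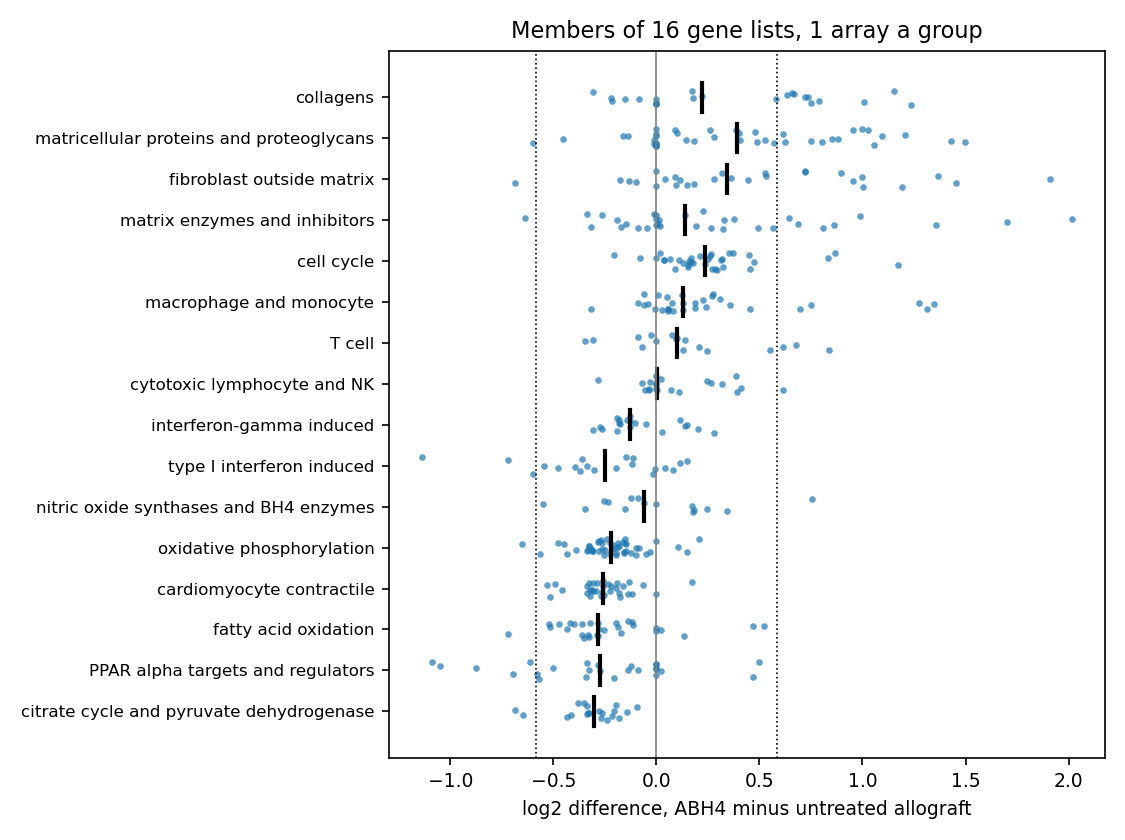
Log2 difference, ABH4 minus untreated allograft, of each measured member of 16 gene lists (points, spread vertically for sight only), with the list median as a thick bar and dotted lines at 1.5-fold. Members at the floor on both arrays are drawn at 0. Matrix and fibroblast lists reach far to the right, and the energy metabolism lists lie mostly to the left of 0 with few members past 1.5-fold.

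Lists of heart muscle and its energy metabolism had negative medians, and most of their members above the floor had negative differences, most of them under 1.5-fold. The shift toward lower values grew with signal over all genes: the median difference was 0.02 among the dimmest 1900 genes and -0.15 among the 305 genes with a mean signal of at least 2048. Quantile normalization reduced the latter to -0.03. The heart lists consist largely of bright genes, so their medians are given with both scalings, and the part of this signal-dependent shift in them was not tested.

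Contractile genes of cardiomyocytes had a median of -0.26 (-0.16 after quantile normalization), with 31 negative and 1 positive among 33 measured, and 0 members at least 1.5-fold apart. Tnni3, cardiac troponin I, had 3361 with ABH4 and 4735 untreated, against 4627 with BH4, 3779 with NIL, 4661 with CsA and 4865 in the syngraft, and was 1.41-fold lower. Ldb3, a Z-disc protein, had 1184 against 1712 (1.45-fold lower), and both further probe sets were lower, at -0.23 and -0.51. Myh6, the alpha myosin heavy chain, had 3161 against 3578, and Nppa, the atrial natriuretic peptide precursor, had 7143 against 8594. ABH4 was the lowest of the 6 arrays for Tnni3, Ldb3, Myh6 and Nppa. Contractile transcripts were present on both arrays, as were those of Nppa, while the atrial markers Myl7 and Sln were at the floor. Of the 14 measured atrial genes 8, Myl4 and Nppa among them, were above the floor on at least 1 of the 2 arrays.

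Fatty acid oxidation, the main source of energy in the adult heart, had a median of -0.28 (-0.21 after quantile normalization), with 24 negative and 4 positive among 30 measured and 1 gene at least 1.5-fold lower (3.33%, near the 2.49% of all genes). That gene was Cpt2, which releases acyl-CoA inside the mitochondrion, with 341 with ABH4 and 563 untreated, against 466 with BH4, 350.1 with NIL, 509.5 with CsA and 414 in the syngraft. It was 1.65-fold lower, with a further probe set at -0.30. Acaa2, the mitochondrial thiolase, had 737 against 1058, and its 2 further probe sets lay at -0.54 and -0.59. Acadm, the medium-chain acyl-CoA dehydrogenase, had 1228 against 1488. No level is given for Cpt1b, since its probe set is listed for several genes.

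Targets and regulators of PPAR alpha, the nuclear receptor that drives this pathway, gave 5 of 25 measured at least 1.5-fold lower and 0 higher, with a median of -0.27 (-0.18 after quantile normalization). Ppara itself had 51.7 with ABH4 and 107 untreated, against 84.0 with BH4, 74.2 with NIL, 101 with CsA and 88.5 in the syngraft, and was 2.07-fold lower. Its partner receptor Rxrg had 58.2 against 124 (2.13-fold lower). ABH4 was the lowest array for Ppara and the untreated allograft the highest, but both signals were dim. Lpin1, a phosphatidate phosphatase and coactivator, had 135 against 247 (1.83-fold lower), with a further probe set at -0.91. Pdk4, the kinase that holds back pyruvate oxidation, had 862 with ABH4 and 1398 untreated, against 1183 with BH4, 1149 with NIL, 456 with CsA and 205 in the syngraft, and was 1.62-fold lower. The fifth gene was Ucp3, a mitochondrial carrier, with 66.5 against 102.

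The citrate cycle and pyruvate dehydrogenase had 20 of 20 measured genes negative under both scalings, 2 of them at least 1.5-fold lower, with a median of -0.30 (-0.23 after quantile normalization). Suclg1, a subunit of succinyl-CoA ligase, had 737 against 1185, and Idh2, the mitochondrial isocitrate dehydrogenase, had 1119 against 1755. Oxidative phosphorylation had 47 negative and 3 positive of 50, a median of -0.22 and 1 gene at least 1.5-fold lower (2.0%, near the 2.49% of all genes), and after quantile normalization 39 were negative with a median of -0.12. That gene was Cyc1, cytochrome c1, with 2776 with ABH4 and 4363 untreated, against 4824 with BH4, 3595 with NIL, 4575 with CsA and 4434 in the syngraft. Glycolysis and glucose transport had 0 of 20 at least 1.5-fold apart and a median of -0.24 (-0.13 after quantile normalization).

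Lists outside the heart muscle with a median log2 signal above 9 differed among themselves. Ribosomal proteins had a median of -0.14 (-0.02 after quantile normalization), the proteasome -0.12 (-0.04) and hypoxia genes -0.28 (-0.16), beside the -0.25 of type I interferon induced genes and the 0.13 of macrophage genes given above. Housekeeping genes, a check list, had -0.17 (-0.05), and heat shock proteins had -0.16 (-0.07). Every such list except that of macrophage genes had a negative median. Heart calcium and ion channel genes, which are dimmer, gave 4 of 29 at least 1.5-fold lower and 0 higher (median -0.17, and -0.14 after quantile normalization). Kcnh2, the channel of the rapid repolarizing current, had 69.8 with ABH4 and 146 untreated, against 90.2 with BH4, 118 with NIL, 167 with CsA and 187 in the syngraft, and was 2.10-fold lower. Kcnq1, the channel of the slow current, had 124 against 204 (1.64-fold lower). ABH4 was the lowest of the 6 arrays for both channels.

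**Figure D5:**
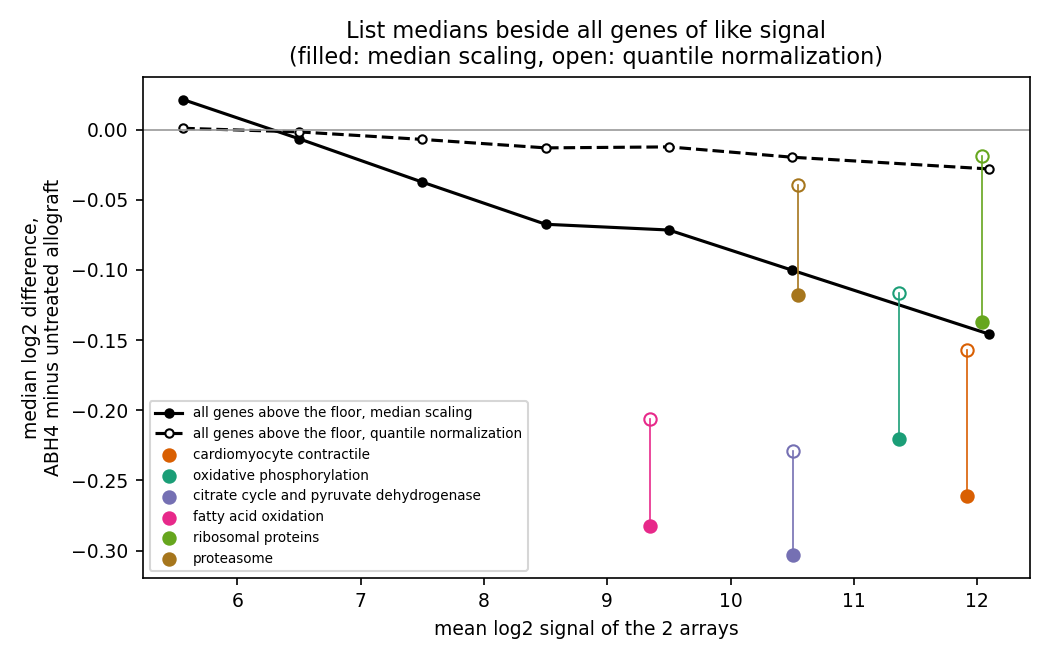
Median log2 difference, ABH4 minus untreated allograft, against mean log2 signal of the 2 arrays. Lines are all genes above the floor in bands of signal, and circles are list medians drawn at the median signal of their members (filled, median scaling; open, quantile normalization). The fatty acid oxidation, citrate cycle, oxidative phosphorylation and contractile medians lie under the matching line with either scaling, whereas ribosomal proteins and the proteasome lie near it. Hypoxia and type I interferon induced genes, which are not drawn, also had medians under those of all genes of like signal with either scaling.

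Cell cycle genes had 32 positive and 2 negative differences among 35 measured, 3 at least 1.5-fold higher and 0 lower, and a median of 0.24 (0.26 after quantile normalization). Hmgb2, a chromatin protein of dividing cells, had 529 with ABH4 and 235 untreated, against 302 with BH4, 286 with NIL, 136 with CsA and 96.4 in the syngraft, and was 2.25-fold higher, but its further probe set was higher by 0.20. Mcm2, a subunit of the replicative helicase, had 503 against 276 (1.82-fold), with a further probe set at 0.40, and Bub1b, a spindle checkpoint kinase, had 108 against 60.7 (1.78-fold). ABH4 was the highest of the 6 arrays for all 3. Mki67, a marker of dividing cells named after its value was seen, had 349 against 280.4.

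The largest lower differences among genes measured on both arrays were Vmn1r44, a vomeronasal receptor (53.8 against 221, or 4.11-fold lower), Ankrd2, a muscle ankyrin repeat protein (45.9 against 132, or 2.87-fold), and Mpg, a DNA glycosylase (37.5 against 107, or 2.85-fold). Sox10, a transcription factor of Schwann cells, had 41.2 with ABH4 and 113 untreated, against 86.0 with BH4, 114 with NIL, 105 with CsA and 105 in the syngraft, and was 2.74-fold lower. Its list of 20 nerve and Schwann genes had a median of 0.00. Fblim1, a filamin-binding adaptor, was the brightest of the 12, with 266 against 579, and was 2.18-fold lower, with a further probe set at -0.26. Among genes at the floor with ABH4, Gdpd5, a phosphodiesterase, had 106 untreated (at least 3.04-fold lower), and the transcription factor Foxf1 had 103 (at least 2.95-fold lower).

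Of 26 endothelial genes 1 was at least 1.5-fold higher (3.85%) and 1 lower (3.85%), near the 3.22% and 2.49% of all genes, with a median of -0.10. Lyve1, a hyaluronan receptor of lymphatic endothelium and some macrophages, had 121 against 64.5 (1.87-fold), and its further probe set was higher by 0.77. Cdh5, the adhesion protein of endothelial junctions, had 170.4 with ABH4 and 248 untreated, against 198 with BH4, 215 with NIL, 238 with CsA and 284 in the syngraft, 1.45-fold lower, with a further probe set at -0.61. Cdh5 was thus short of 1.5-fold, and the gene counted as lower, at -0.73, is another that is not named here. Of 20 smooth muscle and pericyte genes 2 were higher and 1 lower by 1.5-fold (median 0.00). Tagln, an actin-binding protein of smooth muscle, had 101 against 57.0, and Abcc9, a subunit of the vascular potassium channel, had 48.4 against 89.5. ABH4 was the lowest of the 6 arrays for Cdh5 and Abcc9.

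BH4, the cofactor that ABH4 resembles, was given at the same dose and interval, and its comparison shares the untreated array. The medians for ABH4 and BH4 minus untreated were 0.22 and 0.96 for collagens, -0.22 and 0.00 for oxidative phosphorylation and 0.10 and -0.32 for T cell genes, with 1 array each and no interval for their difference. NIL, at another dose and also set against that array, had medians of 0.11, -0.22 and 0.16 for these lists and -0.29 for the citrate cycle, where ABH4 had -0.30.

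The 3' to 5' signal ratio was 1.08 with ABH4 and 1.12 untreated for Actb, and 0.862 and 0.857 for Gapdh, and the share of probe sets at the floor was 31.2% and 31.4%. Markers of other cell types were often at the floor on both arrays: 14 of 21 salivary, 12 of 20 skeletal muscle, 9 of 14 thymus and lymph node, 7 of 15 adipose and 5 of 10 mast cell genes, so that medians over all members say little. Over the members above the floor the medians were 0.11 for 7 salivary, -0.11 for 8 skeletal muscle, 0.43 for 5 thymus and lymph node, -0.33 for 8 adipose, -0.18 for 5 mast cell, 0.18 for 7 erythroid and 0.07 for 13 neutrophil genes. Their part in the differences above was not tested.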

How the data were processed

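Total RNA of mouse cardiac grafts was measured on 6 Affymetrix arrays, 1 for each group, and 2 were compared here. The values deposited by the authors are linear signal intensities for 22690 probe sets. The trimmed mean of each array was the same, so the arrays had been scaled beforehand. Not given in the sources used here: the scanner software, the background correction and the summarisation method. After removal of 64 controls, the arrays were brought to 1 median, the mean of the 6, floored at the 30th percentile and put on the log2 scale (Python 3.11.15, numpy 2.4.6, pandas 2.3.3, figures with matplotlib 3.10.9). A gene took the probe set of highest mean signal among the 20380 with a single gene symbol, with symbols updated through RefSeq for 20351. Left out of gene counts were 691 probe sets listed for several genes and 1555 with none.

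With 1 array a group no variance could be estimated and no p-value is given. Genes were counted past 1.5-fold, 2-fold and 3-fold and in 64 lists of 1547 entries, of which 1364 had a measured gene; the remaining 183 were not analysed here. Named genes are the 12 largest differences each way among genes that passed the floor on each array and the median of at least 1, without genes whose further probe sets differ in sign, the 6 largest bounds each way, the 3 largest of each list, and a preset list of 18 genes. Hp, Lbp, Saa3, Lcn2, Ddr2, Ucp3, Myl7, Sln and those marked in the text were named after their values were seen. The members, lists and named genes were chosen with earlier results of these data known, so the lists give no independent support. The processing was tested on simulated data, made from the untreated array with added noise. Known folds were given only to probe sets above its median, so recovery of differences near the floor was not tested. Tried as alternatives were unscaled deposited values, quantile normalization, floors at the 10th and 50th percentile, the mean over probe sets of a gene, and genes above the floor only.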

Additional observations from a re-analysis of the deposited data

How the results depend on the processing

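With 1 array a group no array could be left out. No paired analysis was possible because each group has 1 sample. Of the list medians under the alternatives, 343 moved by less than 0.1 on the log2 scale and 41 by more. Of the values of named genes, 1150 moved by less than their tolerance of 0.179 and 155 moved by more. A further 3, all from a difference of at least 1.5-fold, changed sign. Those were Fdft1 (-0.10) and Hbb-b2 (0.29) with the mean over probe sets and Itga4 (0.40) with the deposited values. Sign changes of smaller differences were not counted apart.

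The floor set the counts most. At least 2-fold higher and lower were 538 and 440 genes with the floor at the 10th percentile, and 31 and 3 with it at the 50th. Counted as probe sets they were 155 (0.685%) and 81 (0.358%). Quantile normalization gave 82 and 27, of which 77 and 27 were shared with the main counts.

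With the floor at the 10th percentile the medians became 0.58 for collagens, 0.53 for fibroblast genes, 0.36 for B cell and plasma cell genes and 0.22 for acute phase genes. At the 50th percentile they were 0.022 for matricellular proteins, 0.014 for matrix enzymes, 0.10 for fibroblast genes and 0.00 for arginine genes. With genes above the floor only they were 0.63 for collagens, 0.87 for acute phase genes and 0.20 for B cell and plasma cell genes. Quantile normalization gave -0.16 for contractile genes, -0.12 for oxidative phosphorylation, -0.13 for glycolysis and -0.063 for MHC class II. The mean over probe sets gave -0.16 for PPAR alpha targets. Some list counts past 1.5-fold also moved. With the floor at the 50th percentile 4 fibroblast, 3 acute phase and 3 B cell and plasma cell genes were higher and 2 PPAR alpha targets lower; with it at the 10th, 10 B cell and plasma cell and 5 complement genes were higher and 8 PPAR alpha targets lower. The cause of the scaling differences was not tested. Differences near the floor are limited by signal over background.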

Other observations

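Stress and signalling lists outside the comparisons above had few members at least 1.5-fold apart. Of 28 oxidative stress and glutathione genes 1 was higher (3.57%) and 2 were lower (7.14%), beside 3.22% and 2.49% of all genes (median -0.10). Gpx3, the secreted glutathione peroxidase, had 411 with ABH4 and 726 untreated, against 669 with BH4, 276 with NIL, 840.5 with CsA and 5527 in the syngraft, and was 1.77-fold lower. Sod3, the superoxide dismutase bound to matrix, had 364 against 212 (1.72-fold higher), with a further probe set at 0.73. Of 24 unfolded protein response genes 2 were lower and 0 higher by that fold (median -0.10): Herpud1, a protein of endoplasmic reticulum-associated degradation, had 367 against 627, and Asns, asparagine synthetase, had 353 against 584, with further probe sets at -0.17 and -0.70.

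Hypoxia genes had 0 of 18 members at least 1.5-fold apart and a median of -0.28. Vegfa, the vascular growth factor, had 288 against 417, with a further probe set at -0.55. Of 18 circadian clock genes 2 were lower and 0 higher by 1.5-fold (median -0.10), among them Nr1d1, a repressor of the clock, with 125 with ABH4, 234 untreated, 158 with BH4, 228 with NIL, 356 with CsA and 399 in the syngraft. ABH4 was the lowest of the 6 arrays for Nr1d1, and the time of day at which grafts were taken is not stated in the labels. Birc3, an inhibitor of cell death signalling, had 515 with ABH4 and 289 untreated (1.78-fold higher), and ABH4 was the highest of the 6 arrays.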
